A study of Mus musculus with 4 samples.

Results

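Translation initiation factors are the proteins that bring the initiator tRNA, the small ribosomal subunit and an mRNA together and find the start codon. eIF2 carries the initiator tRNA and is recharged with GTP by eIF2B, eIF3 holds the small subunit, and the eIF4 proteins bind the cap and unwind the leader. eIF1, eIF1A, eIF5 and eIF5B then control start codon choice and subunit joining. Naive T cells keep protein synthesis low and raise it sharply after antigen receptor and CD28 stimulation, in part through mTORC1, which frees the cap-binding protein eIF4E from its inhibitors, the 4E-binding proteins.

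The genes described here are those whose symbol begins with Eif and a factor number from 1 to 6, without the eIF2 kinases (Eif2ak symbols) and without Eif5a. They number 50 among the 23238 symbols of the count tables. Eif5a2, the paralog of the elongation factor gene Eif5a, matches the pattern and is included. The 50 genes lie on 19 chromosomes.

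RNA was sequenced from the 3' end (Lexogen QuantSeq, from 500 ng of total RNA) in CD4+ T cells of the mouse strain C57BL/6j, with 2 libraries labelled PDK4 KO (KO below) and 2 labelled WT. Pdk4 encodes a mitochondrial kinase that restrains the pyruvate dehydrogenase complex, and the comparison asks how its loss alters gene expression in activated cells. All 4 libraries came from naive cells of spleen and lymph nodes, isolated with magnetic beads and then cultured with IL-2 under CD3 and CD28 stimulation for 48 hours. The labels name neither the deleted part of Pdk4 nor the age or sex of the mice, and do not say whether replicates were separate animals, so the p-values below reflect variation between libraries that could be technical.

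Total counts were 9739624 and 9104413 in KO libraries and 8837810 and 9575879 in WT libraries. Pdk4 had 0 and 2 counts in KO libraries and 1 and 0 counts in WT libraries, at or under a floor of 3 counts, so its level does not check the labels. T cell transcripts were present throughout, with Cd4 at 269 and 251 CPM in KO libraries and 252 and 255 CPM in WT libraries. Of the 8 tested CD4 T cell markers, Cd5 rose (log2 fold change 0.29, edgeR adjusted p = 0.0341), the adhesion receptor gene Cd2 fell (-0.41, adjusted p = 0.000107), and the list summed to 2648 and 2659 CPM in KO libraries and 2816 and 2879 CPM in WT libraries. No marker of this list rose with upper quartile scaling or without WT replicate 2, KO replicate 1 or KO replicate 2. CPM is the count scaled to library size and by TMM, a normalisation that aligns the bulk of the genes between libraries. Markers of B cells were lower in KO, where 12 of 14 tested markers fell, with a summed level of 176 and 186 CPM in KO libraries against 318 and 356 CPM in WT libraries. That count was 6 without WT replicate 2 and 8 without KO replicate 2. Cd22, a B cell receptor regulator, was at 0 in both KO libraries, and Pax5, the B cell lineage factor, was at 0 in all 4. For CD8 T and NK cells, 1 of 10 tested markers fell, and the list summed to 270 and 255 CPM in KO libraries and 424 and 440 CPM in WT libraries. The difference between these sums came mostly from the marker that fell. The marker that fell was Gzma, a granule protease gene, at 76.2 and 51.3 CPM in KO libraries and 220 and 219 CPM in WT libraries, and a second marker passed without KO replicate 2 or with no filter. Myeloid markers summed to 3.38 and 15.9 CPM in KO libraries and 9.10 and 7.19 CPM in WT libraries. The part of these other cells in the values below was not tested, and in bulk RNA fewer cells of a type and less RNA per cell cannot be told apart.

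Together, initiation factor transcripts made up 1.31% and 1.28% of all counts in KO libraries and 1.24% in each WT library. Of the 50 genes, 48 passed the filter on low counts and were tested. The remaining pair were Eif4e1b, an oocyte form of the cap-binding protein, with no count in any library, and Eif3j1, with counts in WT replicate 2 alone. Because the kit reads transcript ends, levels are not divided by transcript length, and they compare 3' tags, not molecules per length.

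The highest level was that of Eif2s2, the beta subunit of eIF2, at 2233 and 2178 CPM in KO libraries and 2157 and 2020 CPM in WT libraries. Eif3a, the largest subunit of eIF3, followed at 1167 and 1151 CPM in KO libraries and 1203 and 1281 CPM in WT libraries. Below these, Eif3c, Eif4g2 and Eif1 had means over all libraries of 782, 753 and 711 CPM and overlapped one another. These 5 genes held 44.1% of the initiation factor signal. At the other end stood Eif4ebp3 at 22.0 CPM and Eif5a2 at 2.40 CPM, and 36 of 47 neighbouring pairs in the order overlapped between libraries. Replicates of a genotype differed by a median of 6.04% in KO and 6.79% in WT.

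**Figure D1:**
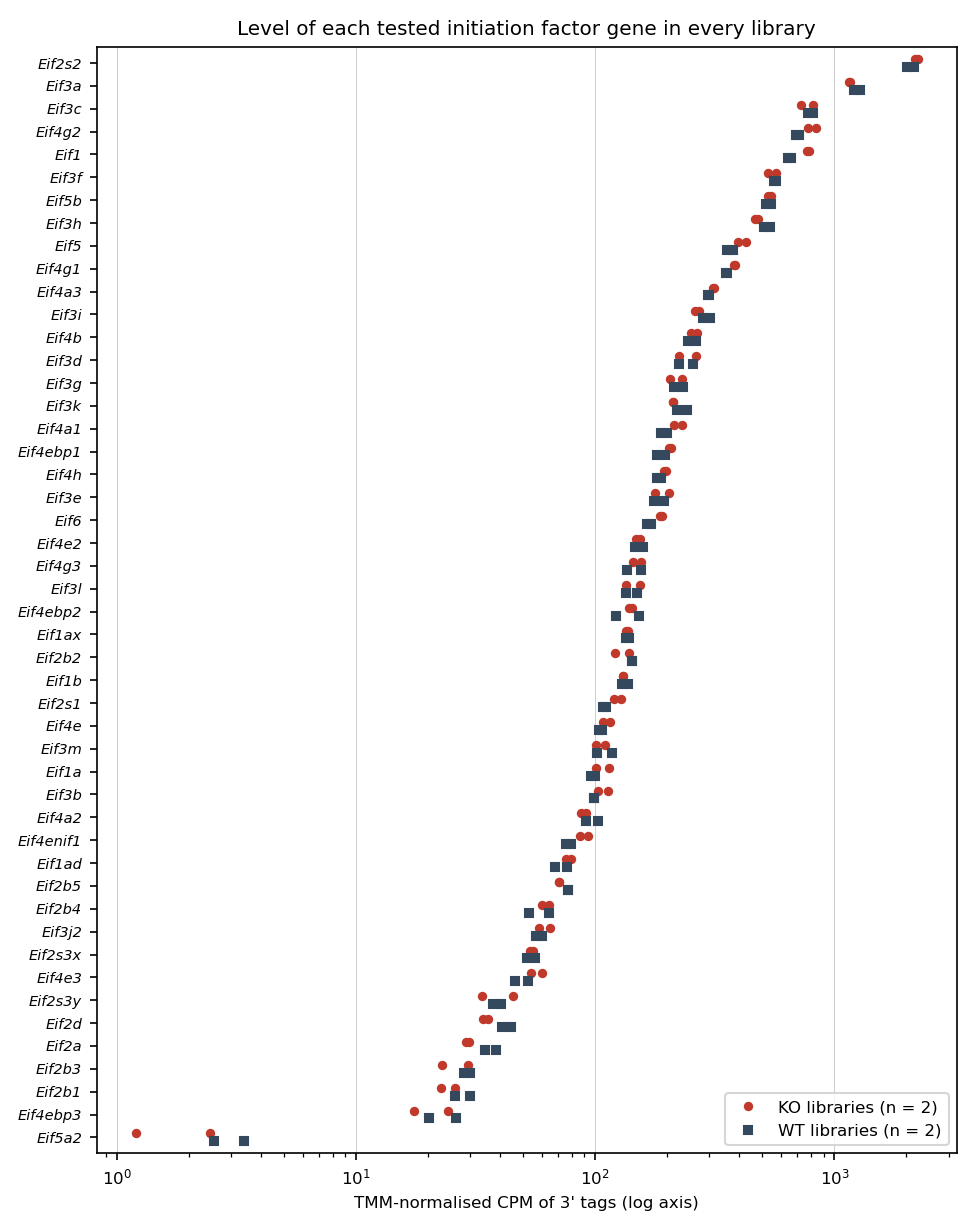
TMM-normalised CPM (log axis) of each tested initiation factor gene in the 2 KO libraries (circles) and the 2 WT libraries (squares), ordered by mean level. The genes run between 2147 CPM for Eif2s2 and 2.40 CPM for Eif5a2, and the KO and WT points of most genes lie close together beside that range.

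Eif1 was the 1 initiation factor gene that passed the test between genotypes. In edgeR's quasi-likelihood test, adjusted by Benjamini-Hochberg across the 11464 genes tested, 1 of the 48 genes rose, 0 fell and 47 did not pass at an adjusted p of 0.05. That is 2.08% of the tested members, against 2.66% of all tested genes that were called in either direction and 1.45% called higher in KO. Among genes averaging 20 CPM or more, 2.13% of members and 3.75% of all genes were called. The member shares rest on 1 gene, and their difference from these backgrounds was not tested. Of all tested genes 1.21% were called lower in KO. At an unadjusted p under 0.05 there were 4 members (8.33% of those tested), Eif1, Eif4g2, Eif4a1 and Eif5, each with higher values in KO, against 13.5% of all tested genes. Among genes averaging 20 CPM or more, these shares were 8.51% of members and 17.2% of all genes. DESeq2 and limma-voom gave the same counts of 1 and 0.

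The members' differences were small. Their median log2 fold change, KO over WT, was 0.02, against 0.00 for all tested genes, with 28 positive and 20 negative values. The values lay between -0.32 and 0.26 apart from Eif5a2, and 40 of 48 (83.3%) were under 0.2 in size, against 53.9% of all tested genes. Since low counts give wide estimates, the closer comparison is among genes averaging 20 CPM or more, where 85.1% of members and 70.1% of all genes were under 0.2. That cut did not match the members in precision. The median SE of the log2 fold change there was 0.0971 for members and 0.136 for all genes, and a comparison matched for level was not made. The 95% interval of the log2 fold change stayed within 0.5 of zero for 42 members. It reached further for Eif2a, Eif2d, Eif2b1, Eif2b3, Eif4ebp3 and Eif5a2, so a difference of that size was not excluded for these 6. The KO and WT libraries did not overlap in 27 members (56.2%), 16 higher and 11 lower in KO, against 43.4% of all tested genes (21.5% higher and 21.9% lower in KO). Among genes averaging 20 CPM or more, they did not overlap in 55.3% of members and 46.8% of all genes.

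**Figure D2:**
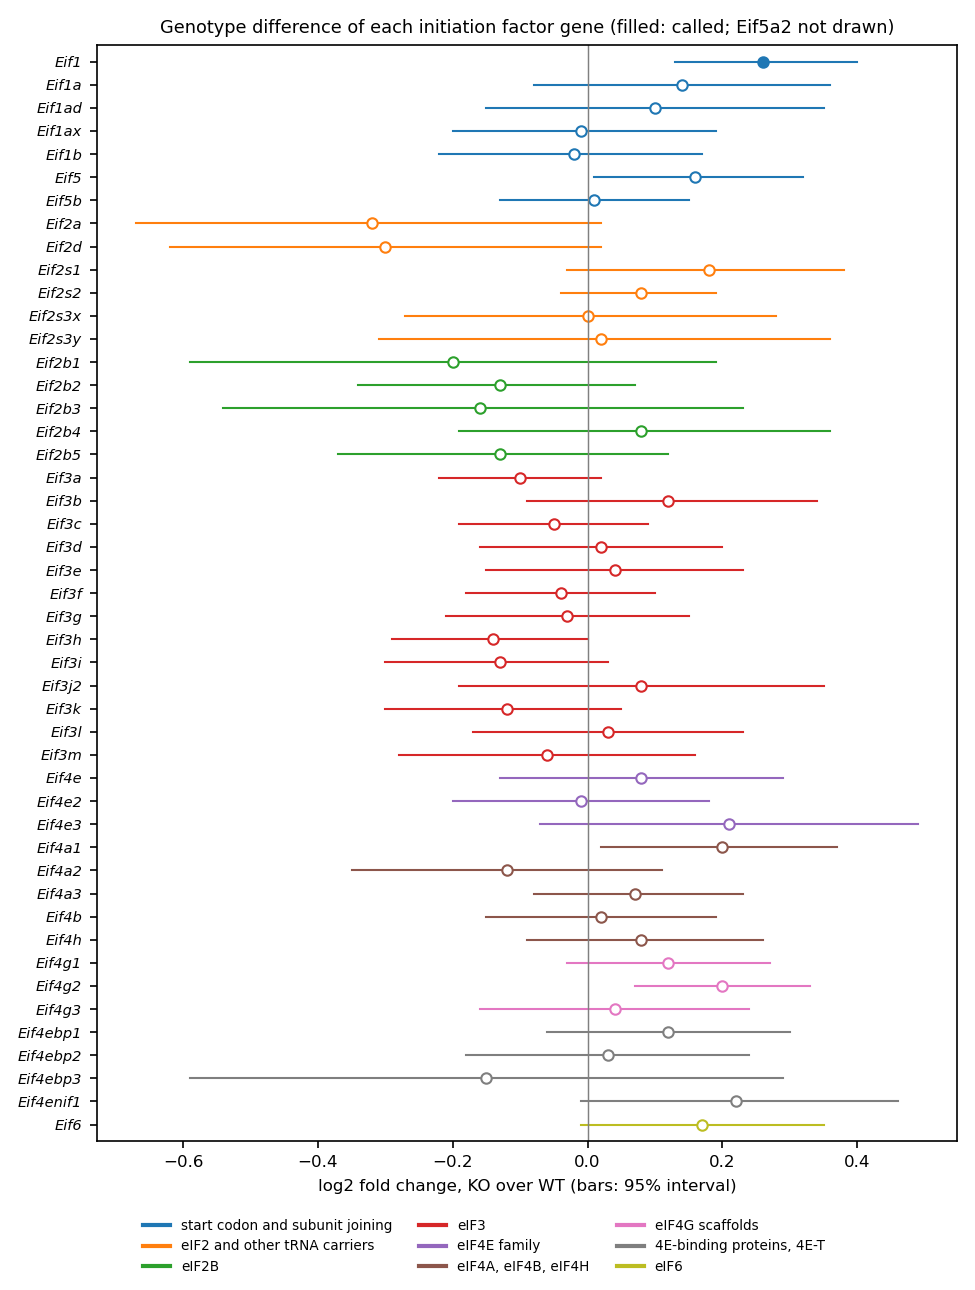
Log2 fold change, KO over WT, of 47 initiation factor genes, coloured by role, with 95% intervals as bars. Filled symbols mark genes past the adjusted test, which here is Eif1 at 0.26, and Eif5a2 at -0.69 (interval -2.03 to 0.64) is left out because its interval would stretch the axis.

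Among the 7 genes grouped here under start codon selection and subunit joining, Eif1 rose and the other 6 did not pass. eIF1 sits beside the initiator tRNA on the small subunit and holds it in the scanning state until a well-placed AUG is found. Eif1 (chromosome 11, 100319885 to 100322096, GRCm38, plus strand) was at 766 and 785 CPM in KO libraries and at 638 and 656 CPM in WT libraries. Both KO libraries lay above both WT libraries. The means were 775 ± 13.2 CPM in KO and 647 ± 12.6 CPM in WT (SD, n = 2 each), and the log2 fold change was 0.26 (SE 0.0654, 95% interval 0.13 to 0.40, edgeR adjusted p = 0.0195). The call was lost without WT replicate 1 (edgeR adjusted p = 0.0716), without KO replicate 1 (0.128) and without KO replicate 2 (0.184), with log2 fold changes of 0.24, 0.28 and 0.24.

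The paralog Eif1b, whose protein closely resembles eIF1, was at 131 CPM in both KO libraries and at 129 and 137 CPM in WT libraries. Its KO values lay between the WT values (log2 fold change -0.02, SE 0.0975, interval -0.22 to 0.17, edgeR adjusted p = 0.96). None of the 50-base words in the last 400 bases of the Eif1 and Eif1b transcripts occurred in a transcript of another gene in GENCODE, so 3' reads of that length would separate them. The difference between the responses of these paralogs was not tested, and their intervals overlap. The sequences before the RefSeq starts of the paralogs are shown because one paralog passed the test and the other did not. They are the 250 bases before the RefSeq start on GRCm38.p6, plus strand, 5′ to 3′, chr11:100319699-100319948 for Eif1 and chr9:120492356-120492605 for Eif1b. Both RefSeq starts lie downstream of the GENCODE gene starts, which are 100319885 for Eif1 and 120492232 for Eif1b. The whole Eif1b window therefore lies inside the GENCODE gene, and the Eif1 window does so only in its last part. The windows are thus not alike in position. Capitals mark matches to any of 4 motifs searched on both strands, CACGTG (the E-box), CCAAT (the box of that name), the TATA box as TATAAA, and the core of the cAMP response element as TGACGT. The E-box and the cAMP response core can share 2 bases, and each window here held 1 match.
Eif1: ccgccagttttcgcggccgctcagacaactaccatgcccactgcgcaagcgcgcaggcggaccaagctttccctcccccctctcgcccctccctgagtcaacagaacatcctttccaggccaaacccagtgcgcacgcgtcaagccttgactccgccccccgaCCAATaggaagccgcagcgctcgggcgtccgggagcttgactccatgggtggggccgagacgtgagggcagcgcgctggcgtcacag
Eif1b: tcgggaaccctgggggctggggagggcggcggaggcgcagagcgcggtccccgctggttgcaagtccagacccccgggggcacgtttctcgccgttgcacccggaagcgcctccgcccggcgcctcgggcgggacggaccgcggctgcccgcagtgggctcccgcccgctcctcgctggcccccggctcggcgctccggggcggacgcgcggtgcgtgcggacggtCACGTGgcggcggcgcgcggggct

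The Eif1 window held CCAAT starting 87 bases before the RefSeq start, and the Eif1b window held CACGTG starting 24 bases before its RefSeq start. G and C made up 66.8% of the Eif1 window and 80.4% of the Eif1b window. RefSeq windows were found for 38 of the 50 members, 45 windows in all. CACGTG was in 8 of the 45 (17.8%) and in 6.02% of the 32851 windows of all genes. TGACGT was in 9 (20%) and in 6.47% of all windows, CCAAT in 11 (24.4%) and in 33.8%, and TATAAA in 4 (8.89%) and in 12.4%. The 9 windows with TGACGT belonged to 7 genes, and for the other motifs each window with a match belonged to a different gene. These shares describe letters in windows that were not matched for base composition.

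Eif5 encodes the GTPase-activating protein of eIF2, which competes with eIF1 for contacts on the small subunit. It was at 425 and 395 CPM in KO libraries and at 377 and 355 CPM in WT libraries, so that the genotypes did not overlap. The log2 fold change of 0.16 (SE 0.075) did not pass (edgeR adjusted p = 0.32), and Eif5 was chosen after its values were seen. Eif1a and Eif1ax, which encode forms of the scanning factor eIF1A, had log2 fold changes of 0.14 and -0.01. Eif5b, the GTPase of subunit joining, was at 543 and 526 CPM in KO libraries and 518 and 545 CPM in WT libraries (log2 fold change 0.01). Eif1ad, placed in this group by its symbol, had a log2 fold change of 0.10. For Eif5b, 54.1% of the 50-base words near its 3' end lie in Rev1 on the opposite strand, and its value is uncertain because it is not known here whether counting used strand. An opposite-strand gene also lies within 400 bases of the 3' ends of Eif2d, Eif2s2, Eif4a2 and Eif4enif1, but 0% of their own 3' words occur in other transcripts.

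**Figure D3:**
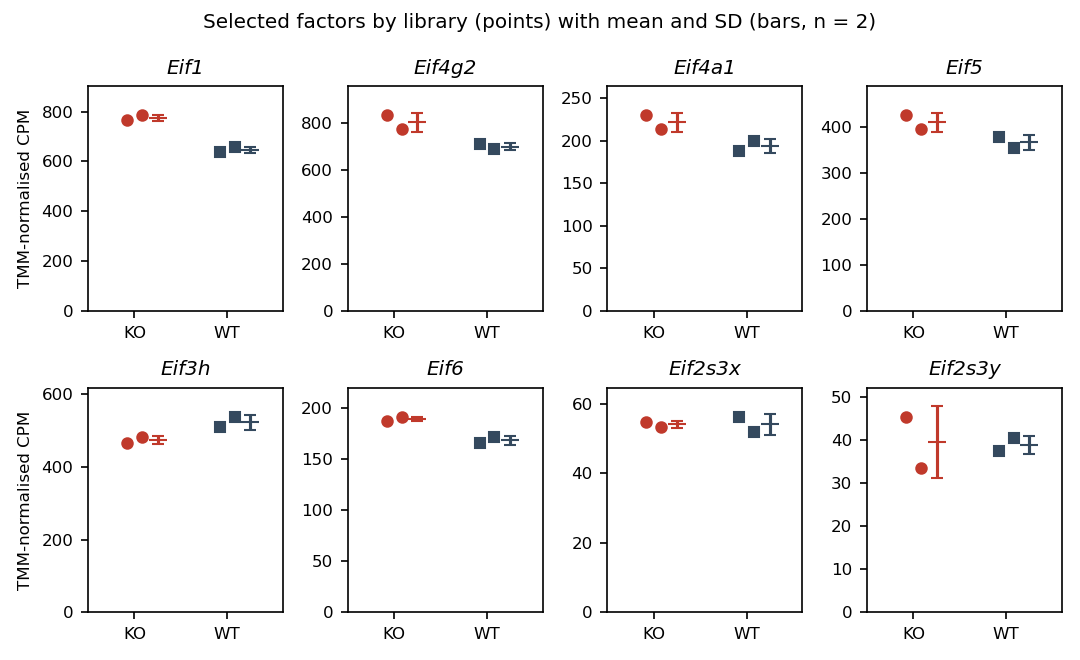
TMM-normalised CPM of 8 initiation factor genes, with KO libraries as circles on the left and WT libraries as squares on the right of each panel, and mean ± SD (n = 2) beside them. The genes include the 4 members with an unadjusted edgeR p under 0.05 (Eif1, Eif4g2, Eif4a1 and Eif5), so they do not stand for the family. Eif1 reaches 766 and 785 CPM in KO against 638 and 656 CPM in WT, whereas the Eif2s3x points of both genotypes share the range of 51.8 to 56.2 CPM.

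The genes of eIF2 did not pass the test. Eif2s1, the alpha subunit on which stress kinases act, was at 120 and 128 CPM in KO libraries and at 111 and 108 CPM in WT libraries (log2 fold change 0.18, edgeR adjusted p = 0.475). Eif2s2 had a log2 fold change of 0.08 (SE 0.0559, interval -0.04 to 0.19). That SE was the smallest of the 48.

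The gamma subunit is encoded on both sex chromosomes in the mouse. Eif2s3x was at 54.8 and 53.4 CPM in KO libraries and at 56.2 and 51.8 CPM in WT libraries, a log2 fold change of 0.00 (SE 0.135). Eif2s3y was at 45.5 and 33.6 CPM in KO libraries and at 37.5 and 40.5 CPM in WT libraries (0.02, SE 0.164). All 4 libraries thus held transcripts of the Y-linked copy, and its KO replicates differed by 35.3%. The Y-linked helicase gene Ddx3y was also present in all of them, at 94.3 and 97.0 CPM in KO and 98.8 and 102 CPM in WT. Xist, the X inactivation RNA, was at 1.84 and 1.63 CPM in KO libraries and 1.25 and 0.951 CPM in WT libraries.

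Eif2a and Eif2d encode factors that can bring tRNA to the small subunit without eIF2. Eif2d was at 33.8 and 35.6 CPM in KO libraries and at 40.9 and 44.5 CPM in WT libraries, and Eif2a had means of 29.3 ± 0.465 CPM in KO and 36.6 ± 2.75 CPM in WT (SD, n = 2 each). Both were lower in each KO library than in each WT library. Neither passed, with log2 fold changes of -0.30 (SE 0.157, edgeR adjusted p = 0.404) and -0.32 (SE 0.169, adjusted p = 0.411). Eif2a was chosen after its values were seen. Beyond Eif5a2, these were the lowest fold changes in the family.

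eIF2B, the exchange factor that recharges eIF2 with GTP, had 5 genes in the test, and 0 passed. Their median log2 fold change was -0.13, with values between -0.20 and 0.08. Eif2b2, a regulatory subunit and the gene of highest level here, was at 121 and 138 CPM in KO libraries and at 142 CPM in both WT libraries (-0.13, SE 0.0989, edgeR adjusted p = 0.615). Eif2b5, the catalytic subunit, was at 70.3 and 70.5 CPM in KO libraries and at 76.9 and 76.8 CPM in WT libraries. Replicates of Eif2b5 were nearly equal, and the genotypes did not overlap (-0.13, SE 0.12, edgeR adjusted p = 0.719).

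The eIF3 complex, which bridges the small subunit and the cap-bound factors, was the largest group. Of its 13 tested genes 0 passed, with a median of -0.04 and all values between -0.14 and 0.12. The 95% intervals of all 13 stayed within 0.5 of zero. Eif3h was at 466 and 481 CPM in KO libraries and at 508 and 537 CPM in WT libraries, the smallest p of the complex (log2 fold change -0.14, SE 0.0705, edgeR adjusted p = 0.376). Eif3a had -0.10 (SE 0.0607, adjusted p = 0.501), and Eif3b, a core subunit, had the highest value of 0.12. Summed over the complex, levels were 4593 and 4400 CPM in KO libraries and 4611 and 4791 CPM in WT libraries.

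The level of the loosely bound subunit eIF3j is uncertain. Eif3j2 on chromosome 18, an intronless copy, was at 64.6 and 58.1 CPM in KO libraries and at 56.3 and 59.7 CPM in WT libraries, while Eif3j1 on chromosome 2 had 4 counts in all. Of the 50-base words near the 3' end of Eif3j2, 85.8% also occur in Eif3j1 transcripts or in Spg11 on the opposite strand. Reads of one copy may therefore have counted for the other. Parts of the 3' ends of Eif3e (24.5% of words), Eif3h (26.8%), Eif3m (52.1%) and Eif3i (2.56%) are also found in other annotated transcripts.

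Of the 3 tested cap-binding genes 0 passed. Eif4e was at 115 and 108 CPM in KO libraries and at 104 and 107 CPM in WT libraries (log2 fold change 0.08, SE 0.104, edgeR adjusted p = 0.82). Eif4e2, whose protein binds the cap but represses translation, was at 154 and 148 CPM in KO libraries and at 159 and 146 CPM in WT libraries (-0.01). Eif4e3, a cap-binding form with a divergent pocket, was at 54.1 and 59.9 CPM in KO libraries and at 46.4 and 52.2 CPM in WT libraries. Its libraries did not overlap, but the difference did not pass (0.21, SE 0.138, edgeR adjusted p = 0.561). Gm20696, an annotated gene on the same strand, overlaps Eif4e3 and lies within 400 bases of its 3' end. Of the 3' words of Eif4e3, 0% occur in transcripts of other genes.

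The inhibitors of eIF4E, which mTORC1 switches off, did not pass either. Eif4ebp1 was at 207 and 204 CPM in KO libraries and at 196 and 181 CPM in WT libraries (0.12, SE 0.0873, edgeR adjusted p = 0.606). Eif4ebp2 was at 138 and 142 CPM in KO libraries and at 152 and 122 CPM in WT libraries, where the WT replicates differed by 24.9% (0.03, SE 0.103). For Eif4ebp3, 100% of the words at the 3' end are shared with a read-through gene on the same strand, and its value of -0.15 (interval -0.59 to 0.29) is uncertain. Eif4enif1 encodes 4E-T, which carries eIF4E to the nucleus and to processing bodies. It was at 86.6 and 93.4 CPM in KO libraries and at 79.1 and 75.2 CPM in WT libraries (0.22, SE 0.116, edgeR adjusted p = 0.402).

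The 3 eIF4G scaffold genes had positive values, and 0 passed. Eif4g1 and Eif4g3 encode forms that join the cap-binding protein to the helicase. Eif4g2 encodes a shortened scaffold, known as DAP5, that does not bind eIF4E. It was at 834 and 777 CPM in KO libraries and at 713 and 689 CPM in WT libraries. The genotypes did not overlap, and the log2 fold change was 0.20 (SE 0.066, edgeR adjusted p = 0.113). It had the second smallest p of the members and an interval of 0.07 to 0.33. Eif4g1, the main scaffold, had 0.12 and Eif4g3 0.04. Fam131a lies on the same strand within 400 bases of the 3' end of Eif4g1, and 0% of the 3' words of Eif4g1 occur in transcripts of other genes.

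Of the helicase group, 0 of 5 genes passed. Eif4a1, the helicase of the cap complex, was at 230 and 214 CPM in KO libraries and at 188 and 200 CPM in WT libraries (log2 fold change 0.20, SE 0.0866, edgeR adjusted p = 0.294). Eif4a2, its close paralog, was at 87.2 and 91.5 CPM in KO libraries and at 103 and 91.5 CPM in WT libraries (-0.12, SE 0.112). These paralogs had values of opposite sign, and the difference between them was not tested. Eif4a3 serves in the exon junction complex and not in cap-dependent initiation. It was at 311 and 314 CPM in KO libraries and at 299 and 295 CPM in WT libraries (0.07, edgeR adjusted p = 0.766), and 23.9% of its 3' words also occur in other annotated genes. The helicase cofactors Eif4b and Eif4h had log2 fold changes of 0.02 and 0.08.

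Eif6 encodes a protein that binds the large subunit and keeps it from joining too early. It was at 187 and 191 CPM in KO libraries and at 165 and 171 CPM in WT libraries, and the genotypes did not overlap. The difference did not pass (log2 fold change 0.17, SE 0.0887, edgeR adjusted p = 0.407). Eif5a2 was at 2.45 and 1.20 CPM in KO libraries and at 3.41 and 2.54 CPM in WT libraries, too few counts to limit the difference.

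Outside the family, 7 lists of other genes of translation control gave 2 rises and 0 falls among 88 tested genes (2.27%), again against 2.66% called of all genes. Bzw2 rose. It encodes an eIF5-mimic protein, which binds eIF2 in place of eIF5. It was at 173 and 158 CPM in KO libraries and at 119 and 114 CPM in WT libraries, with means of 165 ± 10.4 CPM in KO and 117 ± 3.33 CPM in WT (SD, n = 2 each). The log2 fold change was 0.51 (SE 0.0965, edgeR adjusted p = 0.00133), and the call was lost without KO replicate 1 (0.44, adjusted p = 0.0659). The related Bzw1 was at 133 and 123 CPM in KO libraries and at 132 and 118 CPM in WT libraries (0.04, edgeR adjusted p = 0.921), and is named after its values were seen. The pair was not tested against each other.

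Eif5a, the hypusinated factor that helps ribosomes through difficult peptide bonds, rose in the list of elongation and termination factors. It was at 896 and 839 CPM in KO libraries and at 740 and 733 CPM in WT libraries (log2 fold change 0.24, SE 0.0649, edgeR adjusted p = 0.0391). Its call was lost when any 1 library was left out (edgeR adjusted p = 0.0561 to 0.439) and with upper quartile scaling (0.0654). Annotated genes on the opposite strand lie within 400 bases of the 3' ends of Eif5a (Gps2) and Bzw2 (Gm5434), with 0% of the 3' words of either gene found elsewhere. The other 18 tested genes of the elongation list did not pass.

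The list of eIF2 kinases, their regulators and the phosphatase arm also held Atf4, a transcription factor gene translated when eIF2 alpha is phosphorylated, and Abcf1, whose protein associates with eIF2. Of its 15 tested genes 0 passed, with a median of 0.05. Eif2ak2, the interferon-inducible kinase PKR that senses double-stranded RNA, had the smallest p. It was at 13.7 and 21.5 CPM in KO libraries and at 10.1 and 12.5 CPM in WT libraries, a log2 fold change of 0.64 (SE 0.265, edgeR adjusted p = 0.257). Both KO libraries lay above both WT libraries, but the KO replicates were far apart, and the value was 0.93 without KO replicate 1 and 0.28 without KO replicate 2.

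The mTORC1 and MNK list had 16 tested genes, of which 0 passed, with a median of -0.02. Mknk2, a kinase that phosphorylates eIF4E on eIF4G, was at 105 and 96.0 CPM in KO libraries and at 116 and 141 CPM in WT libraries. The libraries did not overlap, with a log2 fold change of -0.36 (SE 0.109, edgeR adjusted p = 0.0754). It was under the threshold with no filter (0.0393), with a stricter filter (0.0368) and without WT replicate 1 (0.00923), and its log2 fold change was -0.21 without WT replicate 2.

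In the remaining lists 0 genes passed. The poly(A)-binding proteins and partners had a median of 0.03 over 9 genes, with the smallest p for Larp4, an mRNA-stabilising protein, at 145 and 146 CPM in KO libraries and 125 and 131 CPM in WT libraries (0.18, edgeR adjusted p = 0.407). Of the 3 mitochondrial initiation genes, Mtfmt, which formylates the mitochondrial initiator tRNA, was at 25.7 and 23.4 CPM in KO libraries and at 14.7 and 20.2 CPM in WT libraries (0.49, edgeR adjusted p = 0.297), a value that was 0.28 without WT replicate 1 and 0.74 without WT replicate 2. Among 8 exon junction partners of Eif4a3, Magoh was at 94.3 and 103 CPM in KO libraries and at 118 and 111 CPM in WT libraries (-0.21, edgeR adjusted p = 0.377). The medians of these 2 lists were 0.21 and 0.06.

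**Figure D4:**
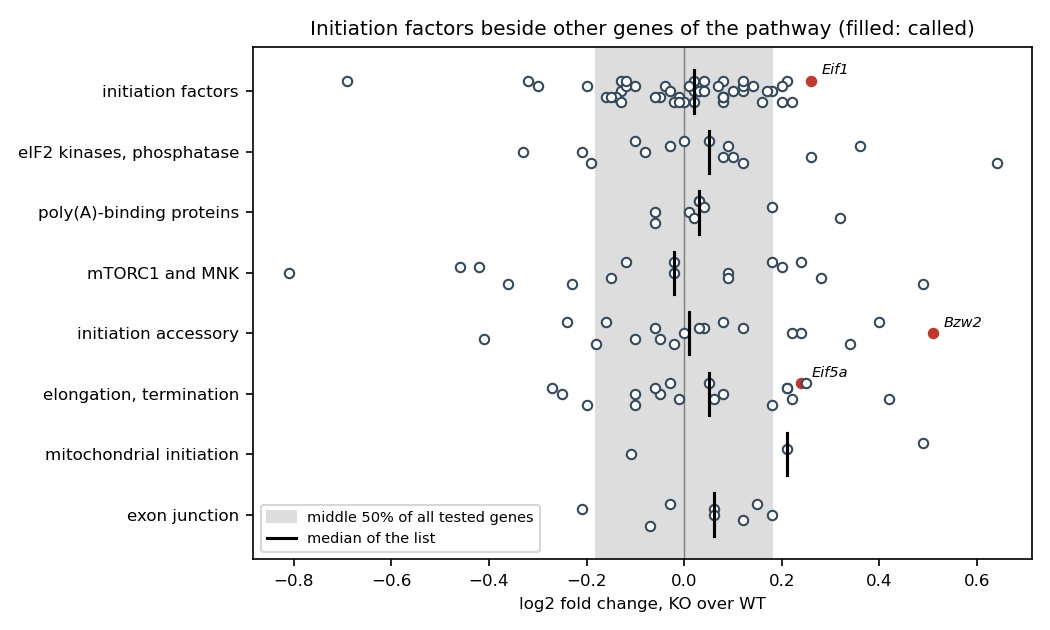
Log2 fold change, KO over WT, of each tested gene in the initiation factor family and in 7 lists of other translation genes, with the list medians as black lines and the middle 50% of all tested genes (-0.18 to 0.18) in grey. Filled symbols mark the called genes Eif1 (0.26), Bzw2 (0.51) and Eif5a (0.24), and the other genes did not pass.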

How the data were processed

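Each library came with a table of unnormalised counts by gene symbol, deposited by the authors (23282 rows, 23238 symbols). Bowtie2, edgeR and the mm10 build are named, with no role or version, in the submitters' processing notes. Which tool and annotation gave the counts, and how strand and multiply matching reads were treated, is not given in the sources used here. Counts of 35 repeated symbols were summed, and Rn45s (11.6% to 12.3% of counts) was kept in the totals.

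KO was compared with WT in edgeR 4.0.16 (R 4.3.3) with filterByExpr, TMM and genotype as the only term, using the quasi-likelihood F test (two-sided). Adjusted p-values are Benjamini-Hochberg values over 11464 genes, and "rose" or "fell" needs one under 0.05. SE is the size of the log2 fold change over the square root of F, and 95% intervals use the test's degrees of freedom. The script was tested on simulated data. The changed genes there had larger fold changes than Eif1, so calls at differences this small were not covered. A floor of 3 counts is 0.308 to 0.339 CPM per library and covers counting error only. Counts of replicate libraries were not the same (chi-square per degree of freedom 5.45 in KO, 5.40 in WT, 7.89 to 10.3 between genotypes). Alternatives were other scalings, filters and tools (DESeq2 1.42.0, limma 3.58.1), leaving out each library and a replicate block.

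The members and lists were chosen with earlier results of these data known. Named genes were the called members, the smallest p and highest level in each role group, Eif2s3x, Eif2s3y, Eif4e, Eif4ebp1, Eif4ebp2, Eif5a, Pdk4, and the called genes or else the smallest p of each other list. Other genes given with their values were chosen after those values were seen. Positions and 3' sequence comparisons (50-base words of the last 400 bases of the longest coding transcript) are from GENCODE vM21 on GRCm38, and upstream sequences are from RefSeq on GRCm38.p6.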

Additional observations from a re-analysis of the deposited data

How the results depend on the processing

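Eif1 remained the called initiation factor gene, with 0 falls, under each of the other scalings, filters and tools, without Rn45s, with the first row of repeated symbols and with the replicate block. Leaving out 1 library, which leaves a lone sample assumed to vary like the others, gave 0 to 1 member rises and 0 falls, with 1 only without WT replicate 2. The median of the members was -0.014 to 0.048 over these fits. All genes gave 92 to 148 rises and 75 to 145 falls without 1 library, against 166 and 139, with 184 calls in all without WT replicate 2 and 170 without KO replicate 1. Genes of the other lists gave 0 to 1 rises and 0 to 2 falls without 1 library, 1 rise with upper quartile scaling, and 1 fall with no filter and 1 with the stricter filter. Values near zero changed sign, for Eif2s3x to -0.008 with upper quartile scaling, -0.002 with the stricter filter, and without 1 library ranged between -0.056 (WT replicate 2 left out, also -0.015 without KO replicate 1) and 0.064, for Eif2s3y to -0.032 without WT replicate 1 and -0.215 without KO replicate 1 (highest 0.221 without KO replicate 2), for Eif4e2 to 0.011 with library size only, 0.050 without WT replicate 1 and 0.016 without KO replicate 2 (lowest -0.072 without WT replicate 2), and for Eif4ebp2 to -0.124 without WT replicate 2 (highest 0.198 without WT replicate 1). The cause was not tested. Without 1 library, uncalled log2 fold changes also ranged over 0.063 to 0.179 for Eif4ebp1, 0.125 to 0.294 for Eif4e3, 0.038 to 0.120 for Eif4e, 0.030 to 0.127 for Eif2s2, -0.235 to -0.041 for Eif2b2, -0.145 to -0.055 for Eif3a and -1.302 to -0.275 for Eif5a2. With the replicate number as a block, 142 genes rose and 118 fell, 256 of them among the 305 called without it, and it changed no call of a named gene. Deviations of same-numbered libraries correlated at 0.01, and the libraries share only a number.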
